A study of Homo sapiens with 6 samples.

Results

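The HOX genes of the 4 human clusters were described in chromatin accessibility data from MCF-10A cells. The members were the protein-coding genes of the hg38 annotation (GENCODE release 44) whose symbol is HOXA, HOXB, HOXC or HOXD followed by a number. They came to 39 of 19111 autosomal protein-coding genes, with 11 in HOXA on chromosome 7, 10 in HOXB on chromosome 17, 9 in HOXC on chromosome 12 and 9 in HOXD on chromosome 2.

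HOX genes encode homeodomain transcription factors that give cells their position along the body axis. Their order on the chromosome follows the order of their expression domains, and genes with the same number in different clusters (paralogues) descend from 1 ancestral gene. Whole stretches of a cluster are kept closed by Polycomb repression or kept open by trithorax group (MLL) complexes, and adult epithelial cells retain a tissue-specific part of this pattern. In the mammary gland HOX genes are known for roles in ductal growth and in breast carcinoma.

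MCF-10A is a non-tumorigenic human breast epithelial line. PIK3CA encodes the catalytic alpha subunit of phosphoinositide 3-kinase. The groups were E545K knock-in cells, with a change in the helical domain, H1047R knock-in cells, with a change in the kinase domain, and WT parental cells, with 2 samples each. Before the assay the E545K and H1047R lines were maintained without EGF (0 ng/ml) and the WT line with 20 ng/ml EGF, so that genotype and maintenance EGF cannot be told apart. Cholera toxin at 100 ng/ml, hydrocortisone at 0.5 µg/ml, insulin at 10 µg/ml and horse serum at 5% were common to all 3 lines. For the last 24 h all cells were in phenol red-free medium with 1% charcoal-stripped serum, 0.2 ng/ml EGF and cholera toxin, hydrocortisone and insulin as before. The labels do not say whether a knock-in line was 1 clone or a pool. ATAC-seq uses the Tn5 transposase to cut accessible DNA, and a peak is a stretch where cuts pile up.

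Peak calling by the authors pooled the pair of samples of each genotype, which leaves 1 list per genotype and no value per sample. No spread between samples and no test could therefore be given. The main HOX counts stand beside the same count over all autosomal protein-coding genes or all peaks. The lists held 89416 peaks in E545K, 106747 in H1047R and 98910 in WT. Because they differ in length, a peak absent from a list means only that none was called there, and "closed" is used for a promoter with no called peak in any list. A peak's area is the authors' own value, and it was used to describe and rank peaks within a list, so that no change is read from areas in different lists. Depth is unknown. As a check of the label, 7 of 8 basal breast markers (all but the canonical start of TP63), 5 of 5 general epithelial markers and 3 of 4 luminal markers (all but PGR) had a promoter peak in every list. The same held for 1 of 5 fibroblast, 1 of 4 endothelial, 1 of 4 immune and 0 of 4 neural markers, and for 65.5% of all genes.

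Sequences of 4 promoters are printed as examples of accessible and closed members. They run from 250 bases before to 50 bases after the start, 5′ to 3′ on the strand of the gene (RefSeq, GRCh38.p14, whose table matched 20 of the 39 genes), and capitals mark CpG dinucleotides. HOXA4 (chr7:27130708-27131007, minus strand) lay under a peak in every list, HOXA9 (chr7:27165488-27165787, minus strand) was covered in H1047R and WT, HOXD11 (chr2:176107030-176107329, plus strand) had an upstream peak in H1047R and WT, and HOXD8 (chr2:176129455-176129754, plus strand) had no peak in any list. They hold 27, 22, 27 and 34 CpG dinucleotides in that order, so the closed HOXD8 promoter held the most of these 4. HOXD8 stands near the upper end, since other closed promoters with a sequence at the canonical start ran from 4 (HOXD4) to 36 (HOXD1).
HOXA4: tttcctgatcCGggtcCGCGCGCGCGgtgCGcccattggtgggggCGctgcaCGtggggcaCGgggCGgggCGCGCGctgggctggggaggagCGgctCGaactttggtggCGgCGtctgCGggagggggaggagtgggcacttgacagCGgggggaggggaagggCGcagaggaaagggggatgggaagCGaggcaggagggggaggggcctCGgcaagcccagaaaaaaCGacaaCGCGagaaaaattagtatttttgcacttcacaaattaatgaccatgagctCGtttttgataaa
HOXA9: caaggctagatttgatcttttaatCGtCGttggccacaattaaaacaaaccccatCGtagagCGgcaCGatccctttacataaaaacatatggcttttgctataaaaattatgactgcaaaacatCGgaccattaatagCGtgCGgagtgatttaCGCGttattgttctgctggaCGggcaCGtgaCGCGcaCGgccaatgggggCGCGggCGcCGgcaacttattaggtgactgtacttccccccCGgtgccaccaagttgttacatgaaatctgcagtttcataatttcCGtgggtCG
HOXD11: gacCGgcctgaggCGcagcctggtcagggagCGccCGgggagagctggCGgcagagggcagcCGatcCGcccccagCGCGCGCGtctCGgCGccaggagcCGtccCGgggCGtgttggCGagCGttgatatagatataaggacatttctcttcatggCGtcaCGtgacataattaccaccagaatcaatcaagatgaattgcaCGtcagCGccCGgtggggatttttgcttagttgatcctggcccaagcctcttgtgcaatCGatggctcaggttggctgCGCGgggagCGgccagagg
HOXD8: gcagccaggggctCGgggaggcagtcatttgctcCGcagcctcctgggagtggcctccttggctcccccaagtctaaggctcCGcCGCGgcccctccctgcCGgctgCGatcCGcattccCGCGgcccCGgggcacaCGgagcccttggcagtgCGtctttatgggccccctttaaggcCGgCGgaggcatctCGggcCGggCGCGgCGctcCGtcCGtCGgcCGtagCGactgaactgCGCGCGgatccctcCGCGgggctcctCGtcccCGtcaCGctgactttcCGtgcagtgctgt

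A promoter was taken as the start of the canonical transcript plus and minus 1 kb. It held a peak for 14 HOX genes in E545K (35.9%), 17 in H1047R (43.6%) and 18 in WT (46.2%), against 67.7%, 68.1% and 67.4% of all genes. A peak stood in every list for 14 HOX genes (35.9%), in some lists for 5 (12.8%) and in no list for 20 (51.3%). Over all genes these shares were 65.5%, 4.55% and 30%. The start base itself lay inside a peak for 10 HOX genes in E545K, 13 in H1047R and 12 in WT, where 64.3%, 64.6% and 63.7% of all genes had a covered start. The HOX share was below that of all protein-coding promoters in each list. The order of H1047R and WT turned with stricter peak limits, at 15 in H1047R and 14 in WT in the upper 50% of each list by area.

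**Figure D1:**
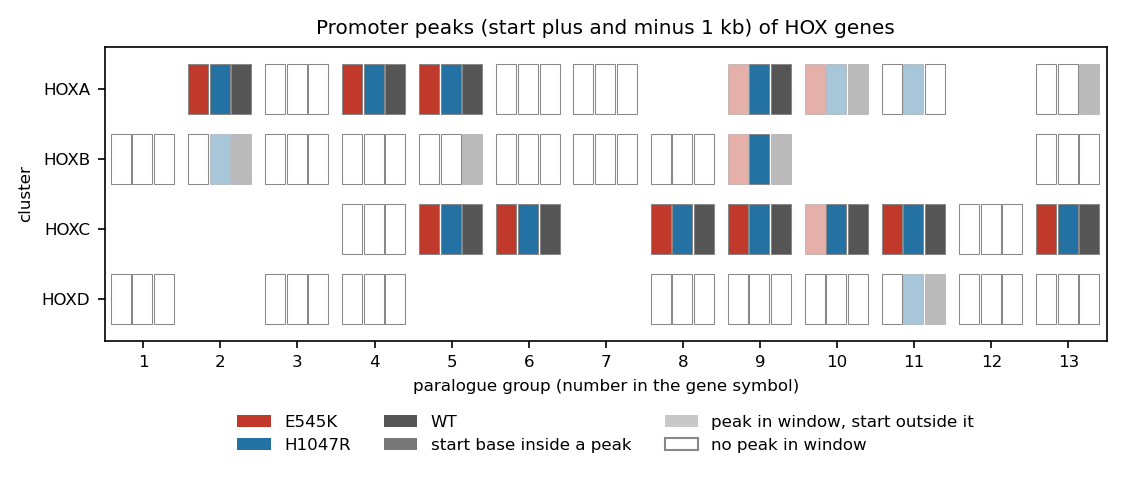
Promoter peaks of HOX genes, by cluster (rows) and paralogue group (the number in the symbol, columns), with E545K, H1047R and WT from left to right in each cell. Full colour marks a start base inside a peak, pale colour a peak in the window that misses the start, and white no peak, while a blank position holds no gene or one not shown; HOXC and HOXA hold most filled cells, and HOXD has only the pale cells of HOXD11.

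Counts varied more between clusters than between lists. In HOXC, 7 of 9 promoters had a peak in every list, and HOXC4 and HOXC12 had none in any. In HOXA, 6 of 11 had a peak in every list, 2 in some and 3 in none (HOXA3, HOXA6 and HOXA7). In HOXB only HOXB9 of 10 genes had a peak in every list, 2 had one in some lists, and 7 had none. In HOXD none of the 9 genes had a peak in every list, HOXD11 had one in 2 lists and the other 8 had none.

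Paralogue number gave no single border between accessible and closed genes. Of the 8 anterior genes (groups 1 to 3) 2 had a peak in every list and 5 in none, of the 15 central genes (groups 4 to 8) 5 and 9, and of the 16 posterior genes (groups 9 to 13) 7 and 6. Groups 3, 7 and 12 had no promoter peak in any list. Group 9 had a peak in every list for HOXA9, HOXB9 and HOXC9, and not for HOXD9.

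The anterior gene HOXA2, which sets the identity of the second pharyngeal arch, was covered by several peaks, with a largest area of 824 in E545K, 2245 in H1047R and 1107 in WT. Its start lay inside a peak in every list.

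HOXA4 and HOXA5 were the accessible central genes of HOXA. HOXA4, which in mice patterns neck vertebrae, had areas of 3229 in E545K, 3735 in H1047R and 3961 in WT, with summits at -169, -169 and -168 bp from the start. HOXA5, known in breast cells as an activator of the p53 gene, had areas of 5011 in E545K, 5977 in H1047R and 6845 in WT. In all lists HOXA4 and HOXA5 stood above the median of the largest promoter area of all genes with a promoter peak, which was 3138 in E545K, 3638 in H1047R and 3508 in WT.

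HOXA9 and HOXA10, posterior genes known for roles in blood stem cells and the uterus, were accessible beside the closed HOXA6 and HOXA7. HOXA9 had areas of 265 in E545K, 2069 in H1047R and 2204 in WT. Its H1047R and WT peaks were 1706 and 2186 bp wide and covered the start, while the E545K peak was 601 bp wide and began 763 bp inside the gene. Peaks covered 11.9% of the HOXA9 window in E545K, 66.6% in H1047R and 66.4% in WT, which was the widest difference among the genes with a peak in every list. HOXA10 had areas of 1509 in E545K, 1914 in H1047R and 1961 in WT, and its peak ended 279, 153 and 181 bp short of the start.

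HOXC held the longest run of accessible promoters. HOXC13, which drives hair keratin genes, had areas of 6173 in E545K, 7225 in H1047R and 7286 in WT, and HOXC11 had 3577, 4112 and 3686 in the same lists. HOXC5 had areas of 1879 in E545K, 2240 in H1047R and 2529 in WT. HOXC8, which patterns thoracic vertebrae in mice, had 1609, 1951 and 2269, and HOXC9, its neighbour, 1937, 2026 and 2514. The 2 weakest were HOXC6, with 511, 645 and 603, and HOXC10, with 380, 578 and 740. These 7 genes had a peak in the window in every list, and HOXC10 in E545K was the only case with the start outside it, by 6 bp. HOXB9, which takes part in mammary gland growth in mice, was the accessible HOXB gene, with 985, 1127 and 1280.

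**Figure D2:**
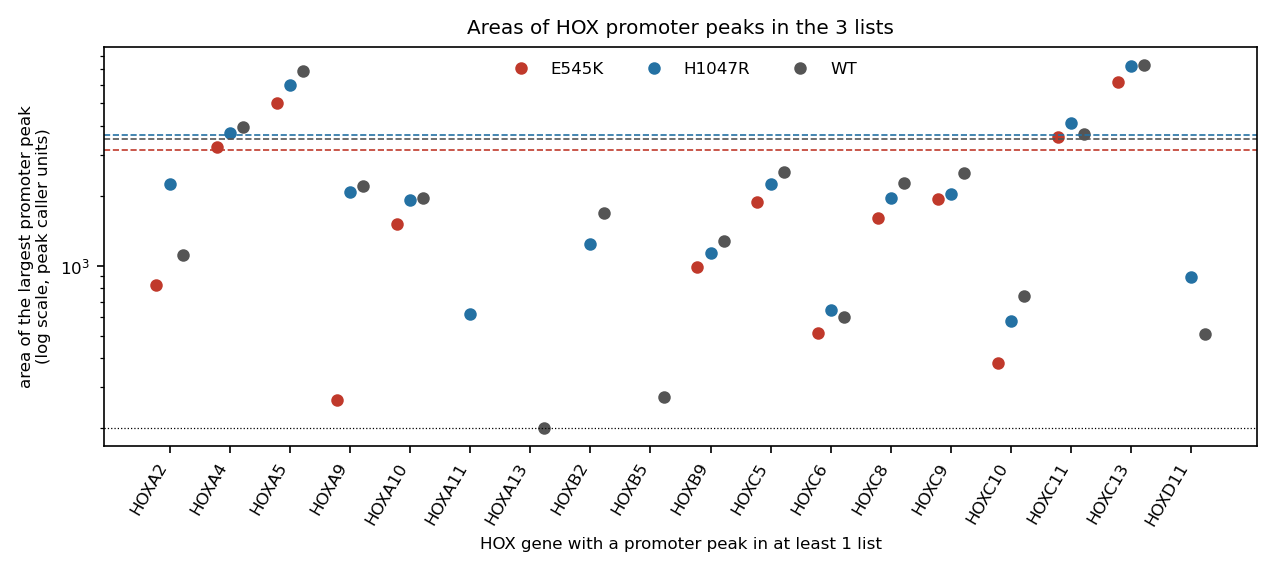
Area of the largest promoter peak (log scale, units of the authors' peak caller) of HOX genes with a promoter peak in at least 1 list, as 1 point per list in the order E545K, H1047R, WT. Dashed lines give the median over all genes with a promoter peak (3138, 3638 and 3508), the dotted line the smallest area called (200); of the genes shown, HOXA5 and HOXC13 stand farthest above the median in every list.

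Over these 14 genes the median of the largest area was 1744 in E545K, 2154 in H1047R and 2392 in WT, below the median over all genes with a promoter peak in each list. The 14 were chosen for having a peak in every list, and the areas describe them within each list.

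In none of the 5 genes with a peak in some lists did a peak cover the start base. HOXA11, a uterus and limb gene, had a peak of area 619 in H1047R alone, 201 bp inside the gene. HOXA13, a digit and genital tract gene, had a peak of area 201 and width 234 bp in WT alone, close to the smallest area of 200 in the lists. HOXB5, a lung gene, had a peak of area 271 in WT alone, 161 bp upstream of its start. HOXB2, a hindbrain gene, had areas of 1233 in H1047R and 1683 in WT. Its E545K peak of area 1176 lay just outside the window, with its edge 1089 bp from the start against 914 bp in H1047R and 902 bp in WT. HOXD11, a forearm and kidney gene, had areas of 896 in H1047R and 510 in WT, with peak edges 312 and 348 bp upstream. The nearest E545K peak to HOXD11 was 9166 bp away.

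Between E545K and WT, no HOX gene had a promoter peak in E545K alone, where 1.72% of all genes did. HOXA13, HOXB2, HOXB5 and HOXD11 had one in WT and not in E545K, 4 of 39 (10.3%) where 1.42% of all genes did. Between H1047R and WT, HOXA11 alone had a peak in H1047R and not in WT (1.78% of all genes), and HOXA13 and HOXB5 had one in WT and not in H1047R (1.03%). These counts of 1 and 2 became 2 and 1 in the upper 50% of each list by area. Between E545K and H1047R, none had one in E545K alone (1.35%), and HOXA11, HOXB2 and HOXD11 had one in H1047R alone (1.81%). Both comparisons with WT use the same WT list, so their HOX genes are not independent evidence. With each list reduced to the 89416 largest areas, HOXA13 left these counts and 3 genes had a peak in WT and not in E545K.

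By the start base, no HOX gene was covered in E545K and not in WT (1.63% of all genes), while HOXA9 and HOXC10 were covered in WT and not in E545K (1.05%). HOXB9 was covered in H1047R and not in WT (1.63%), and none was covered in WT and not in H1047R (0.801%). No HOX start was covered in E545K and not in H1047R (1.18%), and HOXA9, HOXB9 and HOXC10 were covered in H1047R and not in E545K (1.43%). For HOXC10 and HOXB9 these calls rest on a few bases. The HOXC10 peaks ended 4 and 9 bp past the start in H1047R and WT, and the HOXB9 peaks began 62 bp inside the gene in E545K and 7 bp inside it in WT. At HOXA9 the edges stood far apart, since the E545K peak began 763 bp inside the gene.

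**Figure D3:**
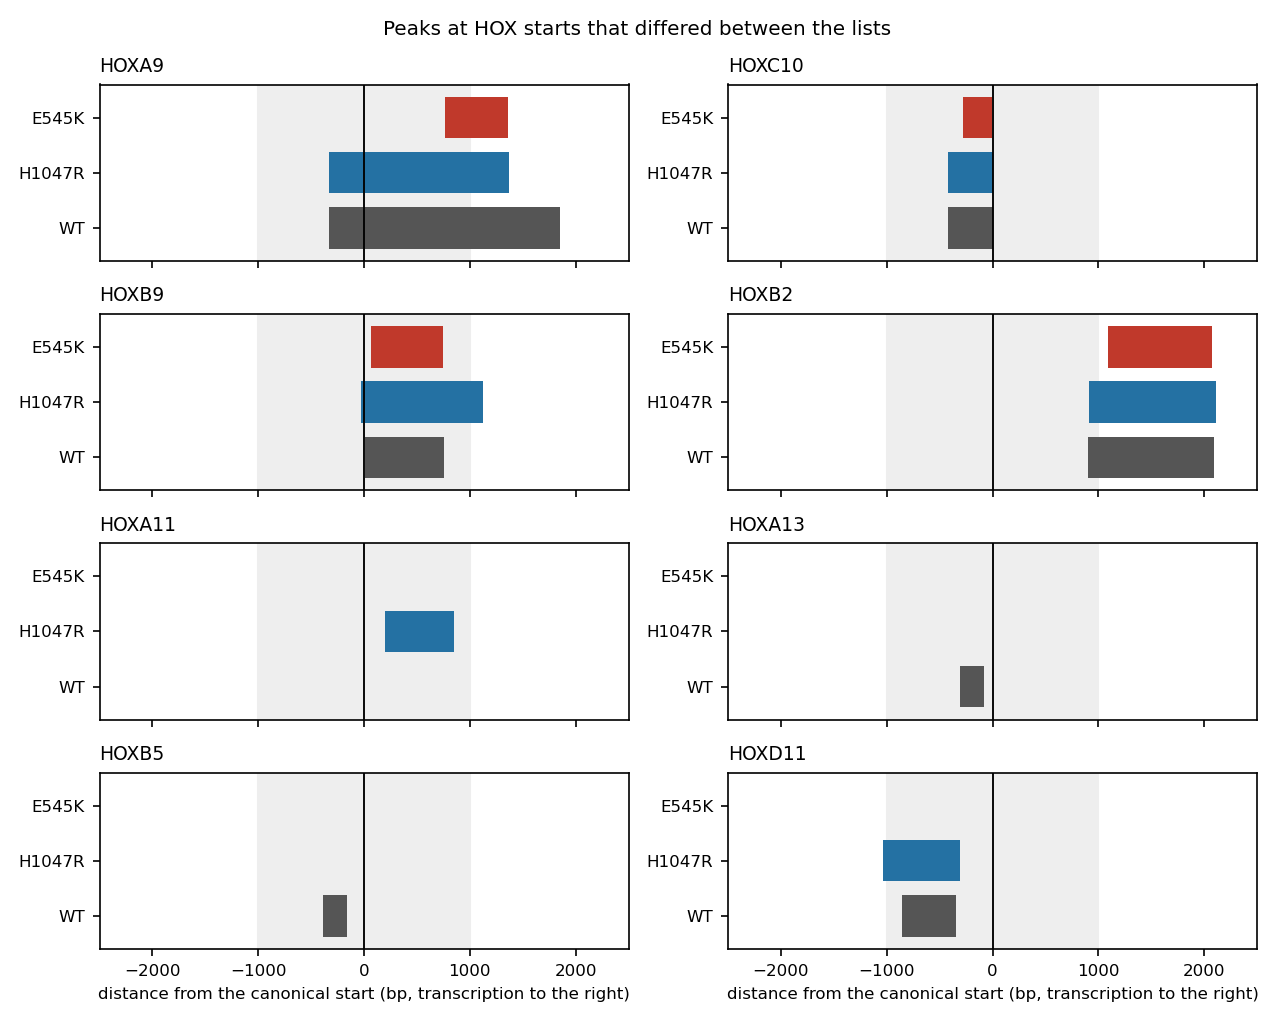
Peaks (bars) around the canonical start (vertical line, transcription to the right) at the 8 HOX genes whose promoter or start call differed between lists, with E545K above H1047R and WT. The grey band is the 1 kb window on either side; at HOXA9 the H1047R and WT peaks cross the start and the E545K peak lies 763 bp inside the gene, while at HOXB2 the 3 peaks nearly coincide.

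The clusters were then taken as regions from the first to the last HOX gene plus 20 kb on either side. The HOXA region (chr7:27072993-27220091) held 21 peaks in E545K, 28 in H1047R and 27 in WT. HOXC (chr12:53918831-54076030) held 11, 13 and 11. HOXB (chr17:48508526-48748750) held 9, 11 and 16, and HOXD (chr2:176072721-176210907) held 3, 4 and 5. In all there were 44 peaks in E545K, 56 in H1047R and 59 in WT, and in the upper 50% by area 28, 32 and 31.

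Peaks covered 17.3% of HOXA in E545K, 21.8% in H1047R and 19.1% in WT. They covered 9.03%, 9.20% and 9.46% of HOXC in the same lists, 2.23%, 2.77% and 2.84% of HOXB (in the upper 50% by area 1.66%, 1.62% and 1.46%), and 1.26%, 1.97% and 2.41% of HOXD. All autosomes stood at 2.42% in E545K, 2.52% in H1047R and 2.34% in WT. HOXA and HOXC stood above the autosomal share in each list. The HOXB region as a whole stood close to it, and HOXD below it in E545K and H1047R and close to it in WT.

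**Figure D4:**
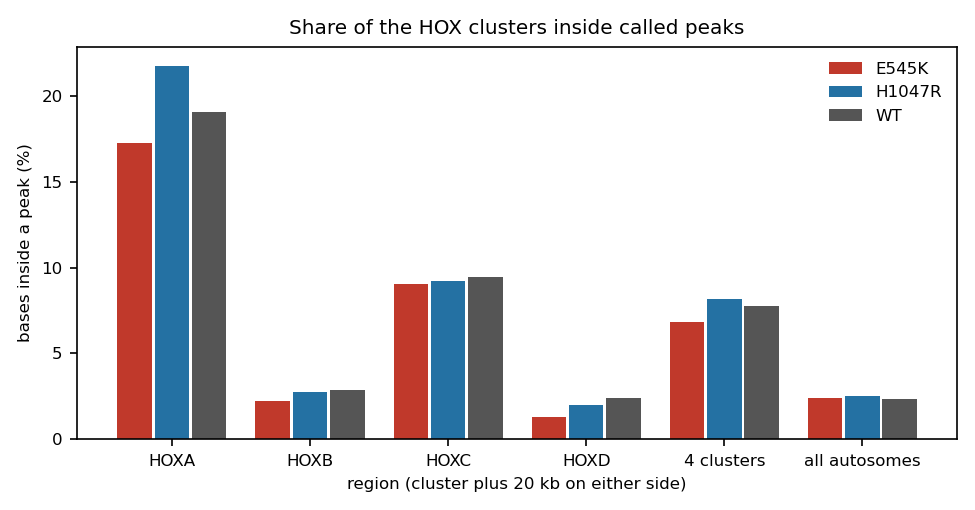
Share of bases inside a called peak (%) in each cluster plus 20 kb on either side, in the 4 clusters together and over all autosomes, with bars for E545K, H1047R and WT from left to right. HOXA stands at 17.3%, 21.8% and 19.1%, HOXC near 9%, and HOXB and HOXD far lower, near or below the autosomal shares of 2.42%, 2.52% and 2.34%.

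Segments set after the values were seen show how uneven the coverage was along a cluster. The stretch between the starts of HOXA2 and HOXA5 was covered to 34.4% in E545K, 39.4% in H1047R and 31.1% in WT. From the start of HOXA6 to that of HOXA13 it was 10.8%, 17.4% and 15.7%. In HOXB the stretch from HOXB1 to HOXB9 was covered to 4.87% in E545K, 6.17% in H1047R and 5.64% in WT, above the autosomal share in each list. The 102 kb between HOXB9 and HOXB13, a prostate gene, were covered to 0.688%, 0.754% and 1.17%. HOXD1 to HOXD13 stood at 1.60%, 2.32% and 3.20%. The HOXA2 to HOXA5 stretch was the most accessible HOX segment of those measured in every list.

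**Figure D5:**
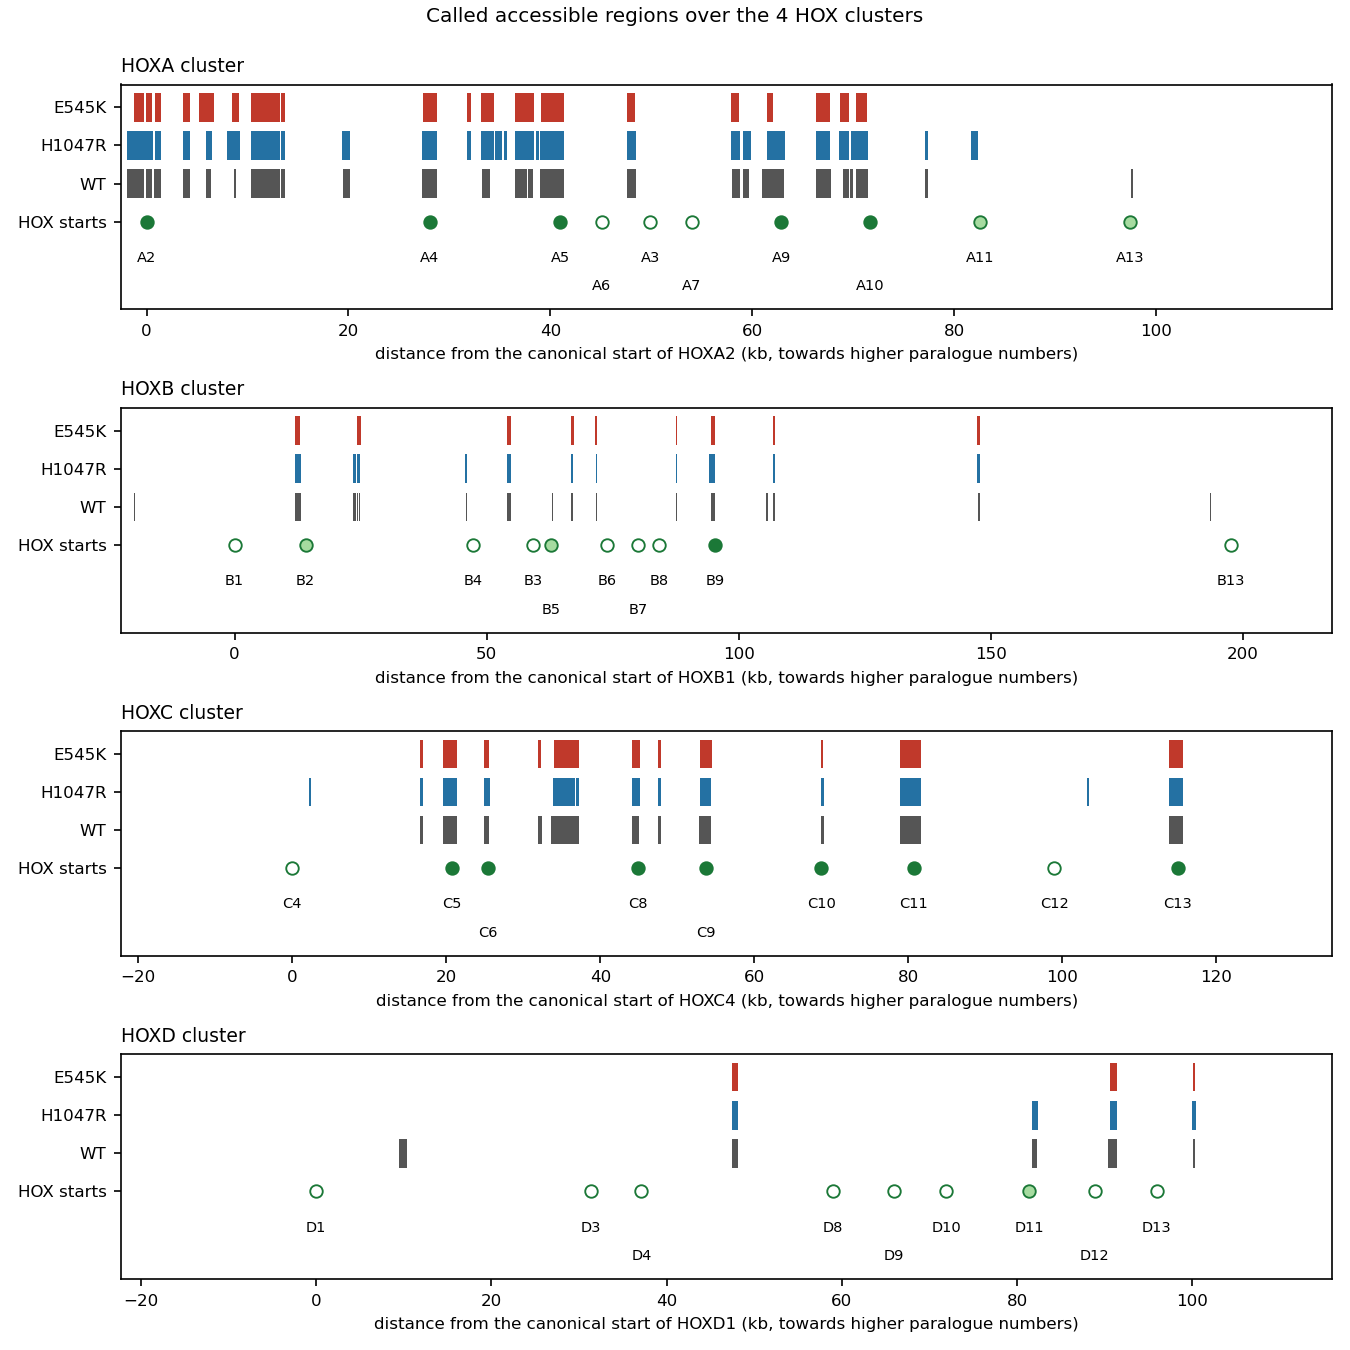
Called peaks (bars) over each cluster in E545K, H1047R and WT, and the canonical HOX starts (circles; dark: promoter peak in every list, pale: in some, open: in none), with distance in kb from the start of the gene named on each axis. The HOXA panel begins just before HOXA2. Peaks crowd between HOXA2 and HOXA5 and at HOXC5 to HOXC13, and HOXD holds 3 peaks in E545K, 4 in H1047R and 5 in WT.

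Long stretches held no peak in any list. Gaps were not measured over all autosomes, where peaks stood at 3.11 per 100 kb in E545K, 3.71 in H1047R and 3.44 in WT. Their lengths are therefore not read as particular to the clusters. In HOXD a gap of 37.1 kb took in the starts of HOXD3 and HOXD4, and a gap of 33.5 kb those of HOXD8, HOXD9, HOXD10 and HOXD11. In HOXB gaps of 45.7 and 40.2 kb lay between HOXB9 and HOXB13 and held no HOX start. The largest gap over HOXA, 19.7 kb, lay beyond HOXA13 and ended at the edge of the region, so the flank set its length. The next largest, 15.1 kb, lay between peaks and held the starts of HOXA11 and HOXA13. In HOXC a gap of 24.4 kb held the HOXC4 start and one of 21.5 kb the HOXC12 start. The longer of these also ended at the edge of its region. The 2 largest areas within HOXD belonged to regions between promoters. One (chr2:176097276-176098292), 1503 bp from the HOXD12 start, had areas of 1590 in E545K, 933 in H1047R and 1538 in WT. Another (chr2:176140486-176141223), in an intron of HOXD3, had 1529, 1301 and 1530.

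Merging touching peaks across the lists gave 62 cluster regions. Of these, 41 were called in all 3 lists, 8 in 2 and 13 in 1, with 0 in E545K alone, 6 in H1047R alone and 7 in WT alone. Merged regions were not counted over all autosomes, and E545K is the shortest list, so these counts are not read as particular to the clusters. By position, 20 regions touched a canonical HOX promoter window, 12 others lay within 1 kb of another annotated start of a HOX transcript, 5 in HOX exons, 12 in HOX introns, 3 at starts of noncoding genes and 10 between genes or in the flanks.

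Several genes counted as closed at the canonical start were accessible at another one. A region within HOXA3 (chr7:27113065-27115929) had areas of 6294 in E545K, 6829 in H1047R and 5135 in WT. It takes in a RefSeq start of HOXA3, a gene of throat and parathyroid development, at position 27113842, whereas the canonical start at 27152583 lies beyond HOXA6. A region at a shared alternative start of HOXC4 and HOXC6 (chr12:54016564-54020265) had areas of 6280 in E545K, 7200 in H1047R and 8939 in WT, which in WT was the largest area of any cluster peak. That region also takes in a RefSeq start given for both HOXC4 and HOXC5, at position 54016888. HOXB3 (chr17:48555269-48556029) had areas of 1107, 1019 and 724 at its alternative start, HOXA6 (chr7:27150222-27151124) 1271, 1439 and 1435, and HOXB6 (chr17:48597684-48598410) 685, 516 and 641. The HOXA6 region also takes in a RefSeq start of HOXA3, at position 27150950, so it cannot be assigned to HOXA6 alone. With the starts of all transcripts in place of the canonical one, 20 HOX genes had a promoter peak in every list, 4 in some and 15 in none. The 15 were HOXA7, HOXB1, HOXB4, HOXB7, HOXB8, HOXB13, HOXC12 and all HOXD genes but HOXD11. The share of all genes under this rule was not computed. Whether HOX genes stay below all genes with these starts is therefore not known.

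The regions at the alternative starts of HOXA3 and HOXB3, paralogues of group 3 on different chromosomes, both hold the word TGATTNAT, which HOX proteins bind together with PBX partners. The 58 bases around the word are printed on the plus strand, at chr7:27113535-27113592 in HOXA and chr17:48555443-48555500 in HOXB, with capitals for bases that are identical without gaps. On this strand the word reads ATAAATCA.
HOXA3 region: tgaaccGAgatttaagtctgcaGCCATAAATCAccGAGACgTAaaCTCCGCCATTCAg
HOXB3 region: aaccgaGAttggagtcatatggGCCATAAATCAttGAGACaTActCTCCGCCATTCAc
The windows shared 32 of 58 bases (55.2%), and 24 of the 50 bases outside the word. The pair was picked after the windows of 7 regions with the word had been compared, where the next highest identity was 39.7%. Within 100 bp of the summit the word was found in 4.55% of cluster peaks in E545K, 3.57% in H1047R and 5.08% in WT, against 5.26%, 6.12% and 5.68% of all peaks, searched on both strands. Over whole peaks it was found in 13.6%, 8.93% and 13.6% of cluster peaks, against 10.8%, 11.4% and 10.7% of all peaks, so that E545K and WT stood below all peaks in one search and above them in the other.

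A peak of one list had a partner in another where they overlapped by at least 1 bp. In E545K, 1 of 44 cluster peaks (2.27%) had no partner in WT, where 12.6% of all E545K peaks had none, and 1 of 44 had none in H1047R (9.14% of all E545K peaks). In H1047R, 7 of 56 (12.5%) had no partner in WT, against 17.9% of all H1047R peaks, and 12 of 56 (21.4%) had none in E545K, against 23.6%. In WT, 14 of 59 (23.7%) had no partner in E545K, against 20.3% of all WT peaks, and 8 of 59 (13.6%) had none in H1047R, against 11%. The H1047R and WT shares were thus near the background or below it, and the E545K shares were below it.

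Most peaks without a partner were small. The 13 regions called in 1 list had a median area of 268 and a range of 201 to 746. The largest (chr2:176178352-176179173, area 746, WT alone) lay near the start of the HOXD noncoding gene HAGLROS. In H1047R alone the largest after HOXA11 had an area of 451 and lay 5760 bp from the HOXA5 start, in an intron of HOXA3. Small WT peaks stood alone beyond HOXB9 (268) and 19803 bp from the HOXB1 start (250), and small H1047R peaks near HOXC4 (236) and HOXC12 (224).

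Of the regions called in 2 lists, 6 were shared by H1047R and WT. Besides HOXD11, they included an exon of HOXB4, with areas of 550 in H1047R and 205 in WT, and an exon of HOXA3, with 545.4 and 252. The end of HOXA9 had 430 and 380, and an alternative start of HOXB3 had 353 and 267. A HOXA3 intron peak near HOXA4 was called with 295 in E545K and 698 in H1047R and was absent from WT. A peak in an intron of HOXC4 and HOXC6 was called with 224 in E545K and 380 in WT and was absent from H1047R.

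The clusters also hold noncoding genes. Of 31 long noncoding RNA genes in the 4 regions, 11 had a promoter peak in every list (35.5%), where 29.0% of all autosomal ones did, 2 had one in some lists and 18 in none. The clusters ranked as they did for the HOX genes, with 6 of 8 in HOXC, 4 of 11 in HOXA, 1 of 8 in HOXB and 0 of 4 in HOXD. Most of these peaks also lay at HOX starts, so the rank is not independent of the HOX calls. HOTAIR, known for its role in breast cancer metastasis, lay in the HOXC11 peak with areas of 3577 in E545K, 4112 in H1047R and 3686 in WT. HOXA-AS2 had areas of 1040, 763 and 444. HOXA-AS3 shared the peak of HOXA4, HOXC13-AS that of HOXC13, HOXC-AS1 that of HOXC9 and HOXC-AS3 that of HOXC10, so their accessibility cannot be told apart from that of the HOX genes. HOTTIP, at the posterior end of HOXA, had no peak in any list. HOXA11-AS shared the H1047R peak of HOXA11. HOXA10-AS shared a peak with the miRNA gene MIR196B. HOXB-AS1 had a peak in every list, with areas of 1176 in E545K, 1233 in H1047R and 1683 in WT. These are the peaks given above for HOXB2, of which the E545K peak lay just outside the HOXB2 window. The accessibility of HOXB-AS1 and HOXB2 cannot be told apart either. A further 2 genes with a peak in every list have no symbol and lay at the alternative start of HOXC4 and HOXC6.

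Members of the miR-196 and miR-10 families, encoded within the clusters, are known to repress HOX transcripts. Mature sequences are printed (RefSeq, GRCh38.p14) with the seed, bases 2 to 8, in capitals. The 196 family shares a seed, although its annotated genes differed in having a peak near them.
miR-196b-5p: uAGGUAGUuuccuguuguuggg
miR-196a-5p: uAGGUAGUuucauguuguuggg
miR-10a-5p: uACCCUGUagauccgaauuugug
miR-615-3p: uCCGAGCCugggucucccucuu
Starts here are those of the short annotated miRNA genes, and starts of longer precursor transcripts were not examined. MIR196B, between HOXA9 and HOXA10, lay inside a peak in every list, with areas of 1944 in E545K, 2448 in H1047R and 2836 in WT. This region also lay within 1 kb of an alternative start of HOXA9, so the peak cannot be assigned to MIR196B alone. In contrast MIR196A1 in HOXB and MIR196A2 in HOXC, which both encode miR-196a, had no peak within 1 kb of their starts in any list. MIR615, within HOXC5, shared the peak of that gene. MIR10A in HOXB and MIR10B in HOXD had none in any list. MIR3185, near HOXB13, had a peak of area 216 in WT alone.

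Accessible and closed HOX promoters overlapped in CpG content. Taking a window of 1 kb on either side as CpG-rich at a GC content of at least 50% and an observed to expected CpG ratio of at least 0.6, 27 of 39 HOX promoters were CpG-rich (69.2%), against 51.9% of all genes. Of these 27, 11 had a peak in every list (40.7%) and 12 in none (44.4%), whereas of 9923 CpG-rich promoters of all genes 85.7% had a peak in every list and 11.5% in none. Read the other way, 11 of the 14 HOX promoters with a peak in every list were CpG-rich (78.6%), as were 12 of the 20 with none (60%), and with windows of 500 bp these shares were 92.9% and 75%. Over all genes they were 68.0% and 20.0% in the 1 kb windows. The median CpG ratio was 0.694 in the 14 HOX genes with a peak in every list and 0.689 in the 20 with none. Over all genes it was 0.700 and 0.295 for the same classes. HOXD8, printed above, had a ratio of 0.955, the highest of the 39, and no peak.

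Cluster peaks seldom held the AP-1 word. TGANTCA, bound by FOS and JUN factors, lay within 100 bp of the summit in 4 of 44 cluster peaks in E545K (9.09%), 5 of 56 in H1047R (8.93%) and 4 of 59 in WT (6.78%), against 32.5%, 36.9% and 34.4% of all peaks. In a split chosen after these values were seen, cluster peaks away from all coding promoter windows held it in 3 of 28 in E545K (10.7%), 4 of 37 in H1047R (10.8%) and 3 of 38 in WT (7.89%). All peaks away from these windows held it in 36.8%, 40.9% and 38.5%. The windows were those of canonical starts, so peaks at alternative HOX starts or at noncoding starts counted as away from them. At promoters, 1 of 16, 1 of 19 and 1 of 21 cluster peaks held it, against 5.70%, 6.64% and 5.98% of all promoter peaks. The TEAD word GGAATG was found within 100 bp of the summit in 11.4%, 7.14% and 8.47% of cluster peaks and in 17.4%, 16.7% and 18.1% of all peaks. The CTCF motif, of an insulator protein known to part HOX domains, was in 0 of 44, 0 of 56 and 0 of 59 cluster peaks at the summit and in 3.06%, 3.04% and 3.38% of all peaks. At these counts a share near that of all peaks would give only 1 or 2 cluster peaks. The homeodomain word TAATTA was in 4.55%, 5.36% and 1.69% of cluster peaks, against 2.73%, 3.41% and 3.34% of all peaks. Over whole peaks it was in 20.5%, 17.9% and 11.9% of cluster peaks, against 10.1%, 10.7% and 10.4% of all peaks, so that the WT share stood below that of all peaks at the summit and above it over whole peaks. All words were searched on both strands.

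Sets of genes that act with or on HOX genes differed from each other in their share of promoter peaks. Of all genes, 65.5% had a promoter peak in every list and 30% in none. All 9 HOX cofactor genes measured had a promoter peak in every list, among them MEIS1 with areas of 6306 in E545K, 6308 in H1047R and 6642 in WT. All 26 Polycomb genes, all 12 MLL complex genes, the 1 H3K27 demethylase gene and all 4 insulator genes measured also had one in every list. Of 12 genes of retinoic acid synthesis, breakdown and reception, which set HOX expression in embryos, 5 had a peak in every list (41.7%) and 5 in none (41.7%). RARA, a retinoic acid receptor, had areas of 754 in H1047R and 719 in WT and none in E545K, and ALDH1A2, a retinoic acid synthesis gene, had 207 in E545K, 369 in H1047R and none in WT.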

How the data were processed

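ATAC-seq was measured in 6 samples, 2 for each of E545K, H1047R and WT. Reads were trimmed with Trim Galore 0.4.0 and peaks called with Genrich 0.6.1 on hg38, per the submitters' processing notes. No source used here names the aligner. The authors' signal per peak is Genrich's area under the significance curve, and their −log10 p belongs to the summit base. Each list pools both samples of a genotype, covers the 22 autosomes only, and holds no depth or value per sample. The smallest area was 200.

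From these lists, promoter, start and cluster overlaps of at least 1 bp were computed with Python 3.11.15, numpy 2.4.6 and pandas 2.3.3 on GENCODE release 44, and figures with matplotlib 3.10.9. Overlap counts were checked with bedtools 2.31.1. The promoter call was also run on the WT list after peaks at 200 promoters had been removed, which checks the code and not the results. Each HOX gene with a promoter peak, each gene whose call differed between lists and the largest cluster peaks without a partner are given by value. The members, gene lists and motif words were chosen with earlier results of these data known. No test across samples was made. Values of some genes are not reported here. Alternatives covered the promoter window, peak threshold, list length, cluster flank, partner rule and a motif search over whole peaks in place of 100 bp around the summit.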

Additional observations from a re-analysis of the deposited data

How the results depend on the processing

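Of 305 values recomputed under other settings, 23 of the main results and 17 of the others moved beyond the limit set for a count or share. The order of a pair of lists, or of cluster peaks against all peaks, was compared in 234 cases and turned in 20. Promoter counts turned between H1047R and WT, at 15 and 14 in the upper 50% by area and 17 and 16 with a summit −log10 p of at least 3, and so did all cluster peaks, at 32 and 31 and at 49 and 48. Promoters in H1047R and not WT against those in WT and not H1047R turned in both settings. Peaks without a partner turned between H1047R and WT at the summit limit (4 and 3), without flanks (7 and 5) and with flanks of 50 kb (10 and 8). HOXB coverage turned at 1.66% in E545K, 1.62% in H1047R and 1.46% in WT in the upper 50%, at 2.12%, 2.35% and 2.12% at the summit limit for both pairs with WT, and at 3.32% in H1047R and 3.28% in WT without flanks. HOXB peaks turned at 5 in E545K and 4 in H1047R in the upper 50%, and HOXC coverage at 9.03% and 8.88% with lists reduced to the shortest. Searched over whole peaks, TGATTNAT in E545K and WT and TAATTA in WT turned against all peaks. HOX promoters with a peak in every list, some lists and no list came to 13, 5 and 21 with windows of 500 bp, and 17, 5 and 17 with windows of 2 kb. Shares of all genes were not computed for these windows. In the upper 50% of each list by area, 28 cluster peaks remained in E545K, 32 in H1047R and 31 in WT, with 2 promoters marked in H1047R but not WT and 1 marked in WT but not H1047R. Peaks without a partner then fell to 0 in E545K against H1047R and 0 against WT, 1 in H1047R against E545K and 1 against WT, and 1 in WT against E545K and 1 against H1047R. With a summit −log10 p of at least 3, 0 promoters were in WT and not in H1047R, and the same 6 counts were 0, 0, 7, 4, 4 and 3. In both settings only the queried peaks were filtered, not their partners. With lists reduced to the shortest, 1 promoter was in WT and not in H1047R, 4 E545K peaks lacked a partner in H1047R and 9 WT peaks one in E545K. With the summit required inside the window, 1 promoter (HOXA10) was in E545K and not in H1047R. Without flanks, 5 WT peaks lacked a partner in H1047R. HOXA9 counted among the genes with a peak in some lists under 500 bp windows and under both filters on peaks, and HOXB2 had a peak in every list with 2 kb windows and in none with 500 bp. No paired analysis was possible because each genotype has 1 pooled list. No sample could be left out for the same reason. Unknown depth limits every absence of a peak.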

Other observations

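Of 18 genes measured around the clusters, 16 had a promoter peak in every list (88.9%), against 65.5% of all genes. These were 11 of 11 around HOXA and HOXC and 5 of 7 around HOXB and HOXD (71.4%). SKAP1, beside HOXB, and EVX2, a homeobox gene at the posterior end of HOXD, had none. EVX1, a homeobox gene beyond HOXA13, was not among the 18 and had none either, so the 11 of 11 depends on that choice. LNPK, beyond EVX2, had areas of 3693 in E545K, 4138 in H1047R and 4147 in WT. MTX2, beyond HOXD1, had 2189, 2679 and 2349.

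Genes of other homeobox families were split. Of 36 such genes, 20 had a promoter peak in every list (55.6%), 1 in some and 15 in none (41.7%), where 65.5% of all genes had one in every list, 4.55% in some and 30% in none. All 5 IRX genes, both MSX genes and 5 of 6 DLX genes were accessible in every list, while 4 of 5 ParaHox genes (GSX1, GSX2, CDX1 and CDX2) and both EVX genes had no promoter peak. LHX6 had one in H1047R alone, with an area of 462.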
